A study of Mus musculus with 12 samples.

Results

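The 83 genes described here, read in mouse embryonic stem (ES) cells, carry the symbols given to proteins of the cytoplasmic ribosome. They were taken from the 52550 gene rows of the deposited tables as protein-coding genes of GENCODE mouse release M21 whose symbol has the form Rpl or Rps followed by a number, together with Rpsa, Rplp0, Rplp1 and Rplp2. S6 kinase genes and pseudogenes were left out. By symbol alone, 51 members are counted with the large subunit and 32 with the small subunit. Whether each protein is part of the mature ribosome was not checked. 6 of the 83 are paralogs that stand beside a main gene, namely Rpl3l, Rpl7l1, Rpl10l, Rpl22l1, Rpl39l and Rps27l. The other 77 are called core members below. Fau, Rack1 and Rpl36al also encode ribosomal or ribosome-bound proteins but fall outside the naming rule, and are given only as context.

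A ribosome holds 1 copy of most of these proteins, so cells make them in matched amounts. The messenger RNAs of most of them begin with a C followed by a run of pyrimidines, the 5′ terminal oligopyrimidine (TOP) tract, through which mTOR signalling and the RNA-binding protein Larp1 set their translation. In ES cells the genes of this group are among the most strongly expressed, and several transcription factors, Myc among them, are known to act on ribosome production.

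Messenger RNA was sequenced from 12 libraries in 6 groups of 2. GSK3 knockout ES cells in medium with serum and LIF received 100 nM JQ1, an inhibitor of the BET bromodomain proteins, or its solvent DMSO. Unmodified ES cells received the same in 2iL, a serum-free medium with LIF and 2 inhibitors, of the kinases MEK and GSK3, and in serum with LIF. All cells were collected after 60 h. GSK3 is the kinase that marks β-catenin for destruction, so the inhibitor in 2iL and the knockout are different ways of removing its activity. Serum cultures were kept on mitomycin-treated mouse fibroblasts and moved to gelatin before the experiment, and 2iL cultures grew on gelatin. The labels name neither the alleles of the knockout nor whether it is 1 clone, and do not say that replicates were separate cultures, so p-values here reflect only library-to-library spread, possibly of technical origin.

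Libraries held 17869865 to 48723436 expected counts, of which 4.67% to 11.9% fell on mitochondrial genes, the least in 2iL with JQ1. Gsk3a stood at 24.7 and 23.4 CPM (counts scaled to library size) in knockout cells with DMSO, against 76.8 and 65.1 CPM in unmodified serum/LIF cells with DMSO, a log2 difference of -1.56 (edgeR adjusted p = 2.08e-06), and Gsk3b stood at 51.2 and 42.5 against 74.8 and 72.2 CPM (-0.65, edgeR adjusted p = 0.00165). Both transcripts were thus lower in the knockout libraries but not absent. The sum of 8 ES cell markers ran from 1270 to 4721 CPM over the 12 libraries, lowest in unmodified serum/LIF cells with JQ1. Of 12 fibroblast markers, Postn, Lum and Dcn had no count in any 2iL library, while Col1a1 reached 482 to 518 CPM in unmodified serum/LIF cells with DMSO. Fn1 and Vim, of the same list, did not vanish in 2iL. Fn1 stood at 1676 and 2156 CPM there with DMSO and at 4430 and 3666 CPM with JQ1, against 2878 and 2665 CPM in unmodified serum/LIF cells with DMSO. Vim ran from 170.5 to 276.1 CPM in 2iL, against 816.9 and 487.2 CPM. JQ1 replicate 1 of the unmodified serum/LIF cells stood apart. It held the lowest CPM of all 12 libraries for 78 of the 83 members, and counts of called members in unmodified serum/LIF cells are given with and without it.

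The pairs on which the paralog results turn are shown first, because reads can tell 2 genes apart only where their sequences differ. The first 150 coding bases of Rpl10l and Rpl10, and the whole coding sequences of Rpl39l and Rpl39, are given from the reference genome GRCm38 and its M21 annotation, with the bases that differ within each pair in capitals. Rpl10l is at chr12:66283379-66284401 on the minus strand, Rpl10 at chrX:74270812-74273135 on the plus strand, Rpl39l at chr16:10170226-10174911 on the plus strand and Rpl39 at chrX:37082520-37085402 on the minus strand.
Rpl10l: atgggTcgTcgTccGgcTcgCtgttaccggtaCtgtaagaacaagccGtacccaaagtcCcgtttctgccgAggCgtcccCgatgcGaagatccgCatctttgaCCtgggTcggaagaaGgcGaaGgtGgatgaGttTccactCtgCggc
Rpl10: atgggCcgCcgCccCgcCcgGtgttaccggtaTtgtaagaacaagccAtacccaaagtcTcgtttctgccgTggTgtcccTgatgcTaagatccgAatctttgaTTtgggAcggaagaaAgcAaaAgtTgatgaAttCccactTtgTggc
Rpl39l: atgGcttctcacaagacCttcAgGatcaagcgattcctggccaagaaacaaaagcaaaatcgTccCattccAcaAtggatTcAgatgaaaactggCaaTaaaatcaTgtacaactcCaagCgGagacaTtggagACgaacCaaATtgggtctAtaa
Rpl39: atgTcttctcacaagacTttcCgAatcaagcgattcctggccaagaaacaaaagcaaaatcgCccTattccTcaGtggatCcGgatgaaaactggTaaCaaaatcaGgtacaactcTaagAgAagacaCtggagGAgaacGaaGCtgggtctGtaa

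Over their whole coding sequences Rpl10l and Rpl10 were identical at 84.8% of 645 aligned bases, with 98 mismatches and no identical run longer than 23 bases. Rpl39l and Rpl39 were identical at 85.3% of 156 bases, with 23 mismatches and a longest identical run of 38 bases. Expected counts are whole numbers where no read had to be shared between genes, and those of Rpl10l, Rpl39l, Rps27l, Rpl3l and Rpl7l1 were whole in all 12 libraries to within 0.005 counts. In contrast, 69 of the 83 members had fractional counts in at least 1 library. 285 annotated ribosomal protein pseudogene rows with -ps in the symbol held counts equal to 3.82% to 4.46% of the members' own. That sum leaves out pseudogenes named otherwise, among them Rps3a2, Rps3a3 and Rps4l. In unmodified serum/LIF cells with DMSO, Rps3a2 and Rps3a3 averaged 375 and 281.5 CPM, beside 185.7 CPM for the member Rps3a1. Rps4l averaged 284.9 CPM there, beside 708.3 CPM for the member Rps4x. The level of a member with fractional counts thus depends in part on how the authors' software divided reads with other genes and processed copies.

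Ribosomal protein transcripts differed widely in level among themselves but little between libraries. On the TPM scale, which corrects for transcript length, the 77 core members averaged 167 (Rpl29) to 5561 TPM (Rps27) over the 12 libraries, with a median of 1569. Rps27, Rplp1 (4960 TPM) and Rps12 (4133 TPM) were the highest. The value of Rps27, a zinc-finger protein of the small subunit, rests on an effective length of only 54.1 bases. The lowest were all paralogs, Rpl10l at 81.5, Rpl39l at 22.4 and Rpl3l at 0.383 TPM. The SD of log2 CPM over all 12 libraries was 0.15 for the steadiest core member, Rpl15, with a median of 0.245 and a highest value of 0.53 for Rps20. The paralogs Rpl10l (1.91), Rpl39l (1.39) and Rpl3l (1.26) varied far more.

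Taken as 1 sum, the members held more of the non-mitochondrial counts in the knockout with JQ1 than in any other library. The share was 6.79% and 7.06% in knockout cells with JQ1, against 5.26% and 5.79% with DMSO. In 2iL it was 5.49% and 6.05% with JQ1, against 6.68% and 6.24% with DMSO. In unmodified serum/LIF cells it was 4.13% and 5.45% with JQ1, against 5.24% and 5.34% with DMSO. The JQ1 and DMSO libraries did not overlap in the knockout, where JQ1 was higher, or in 2iL, where JQ1 was lower, and they overlapped in unmodified serum/LIF cells. Of the authors' TPM, which weigh short transcripts more, the members held 17.1% and 16.4% with JQ1 against 12.6% and 13.1% with DMSO in the knockout. In 2iL the TPM share was 16.2% and 16.8% against 17.1% and 17.2%, and in unmodified serum/LIF cells 11.9% and 14.1% against 12.7% and 11.8%. The direction in unmodified serum/LIF cells thus depends on the scale, since the mean share with JQ1 was below that with DMSO in counts (4.79% against 5.29%) and above it in TPM (13.0% against 12.3%). With DMSO alone, both 2iL libraries stood above both unmodified serum/LIF libraries. The split between subunits hardly moved, with 59.4% to 61.8% of the members' counts on large subunit genes in every library. These shares were not tested, and in bulk RNA fewer cells of a type and less RNA per cell cannot be told apart.

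**Figure D1:**
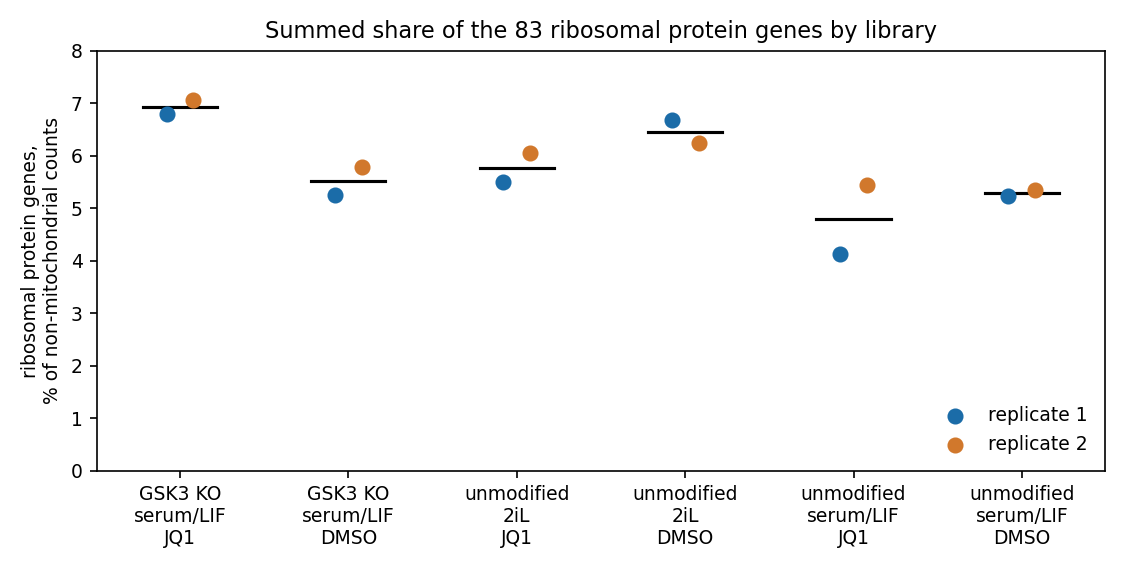
Summed counts of the 83 ribosomal protein genes as a percentage of non-mitochondrial counts in each library (y axis), by group (x axis); points are libraries and bars are the means of 2. The knockout JQ1 libraries (6.79% and 7.06%) are the highest, and the 2 unmodified serum/LIF JQ1 libraries (4.13% and 5.45%) lie farthest apart.

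JQ1 raised ribosomal protein transcripts broadly in GSK3 knockout cells. 41 of the 83 members rose and 1, Rpl10l, fell (edgeR quasi-likelihood test, adjusted p under 0.05, two-sided), where 14.6% of all 16987 genes tested rose and 19.5% fell. The 41 are 49.4% of the members, 22 from the large and 19 from the small subunit. The median log2 fold change over the members was 0.34 and over all genes tested -0.06, and 78 of the 83 members had a positive value. Without the low-count filter, or with the compared libraries alone, 64 rose and 1 fell. With scaling to library totals instead of TMM, 31 rose and 1 fell, with a median of 0.30. When only genes with 1 CPM in 4 libraries were kept, 34 rose and 1 fell. Without the first knockout DMSO library the count of members called was 8, without the second knockout JQ1 library 14, without the first knockout JQ1 library 22 and without the second knockout DMSO library 28, while the median stayed between 0.29 and 0.42 over all 12 such fits. 8 of the 42 calls were kept without any single library: Rpl10, Rps20, Rpl12, Rps2, Rps10, Rpl10l, Rpl7a and Rplp0.

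Among small subunit genes, the highest was Rps20 (chr4:3831334-3835665, minus strand), whose protein sits in the head of the subunit. It had 866 and 924 CPM in knockout cells with JQ1, against 372 and 466 CPM with DMSO, a log2 fold change of 1.10 ± 0.20 (SE; edgeR adjusted p = 0.00154). Rps2 (chr17:24718116-24721929, plus strand), at the channel where messenger RNA enters, had 2686 and 2681 CPM with JQ1, against 1463 and 1618 CPM with DMSO (0.80 ± 0.13, edgeR adjusted p = 0.000714). Rps10, which with Rps20 is ubiquitinated when ribosomes collide, had 690.3 and 728 CPM with JQ1, against 414 and 462 CPM with DMSO (0.69 ± 0.13, edgeR adjusted p = 0.00181). In each of the 3 genes both JQ1 libraries lay well above both DMSO libraries. That adds no support, because the genes were picked by the test on these libraries. Rpsa, also known as the laminin receptor, rose by 0.47 on the log2 scale (edgeR adjusted p = 0.00526), with 2432 and 2457 CPM under JQ1 against 1724 and 1813 CPM under DMSO, and Rps27a, made as a fusion with ubiquitin, rose by 0.47 (edgeR adjusted p = 0.0334). The call for Rpsa is lost without the first knockout DMSO library (adjusted p = 0.0522), and that for Rps27a also without either knockout JQ1 library. Rps6, the substrate of S6 kinase, had 1380 and 1400 CPM with JQ1 against 1130 and 1154 CPM with DMSO, which did not pass (0.28 ± 0.11, edgeR adjusted p = 0.072).

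In the large subunit, all 3 members of the P stalk, which recruits the translation factors, rose. Rplp0, its anchor, had 2307 and 2489 CPM in knockout cells with JQ1, against 1513 and 1709 CPM with DMSO (0.57 ± 0.11, edgeR adjusted p = 0.00239). Rplp1 had 1095 and 1186 against 648 and 801 CPM (0.66 ± 0.15, edgeR adjusted p = 0.00461) and Rplp2 had 683 and 742 against 452 and 543 CPM (0.52 ± 0.13, edgeR adjusted p = 0.00863). Rpl12, at the base of the stalk, had 1231 and 1249 against 782 and 873 CPM (0.58 ± 0.13, edgeR adjusted p = 0.00377). JQ1 and DMSO libraries did not overlap for any of the 4, which adds no support for genes that passed the test on these libraries. Rpl10, which joins the subunit late in its maturation, had 1232 and 1260 against 769 and 866 CPM (0.61 ± 0.12, edgeR adjusted p = 0.00222). Without the first knockout DMSO library the calls for Rplp1 (adjusted p = 0.0616) and Rplp2 (adjusted p = 0.101) are lost, and that for Rplp2 also without the second knockout JQ1 library (adjusted p = 0.0689). Rpl5 and Rpl11, which together with the smallest ribosomal RNA can bind the p53 regulator Mdm2, had log2 fold changes of 0.34 (edgeR adjusted p = 0.0375) and 0.37 (edgeR adjusted p = 0.0617), so that the first passed and the second did not. The call for Rpl5 is lost without any one of the 4 knockout libraries. Rpl38, known in the mouse for the translation of Hox messenger RNAs, stood at 0.28 ± 0.18 (edgeR adjusted p = 0.238). The smallest rises that passed were those of Rpl10a, with 999.6 and 1071 CPM with JQ1 against 793 and 855 CPM with DMSO (0.33 ± 0.12, edgeR adjusted p = 0.0452), and Rpl26, with 641 and 671 against 503 and 540 CPM (0.33 ± 0.11, edgeR adjusted p = 0.0352). Both calls are lost without any one of the 4 knockout libraries and with library totals (adjusted p = 0.0714 and 0.0603).

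The knockout libraries also differed in other respects between JQ1 and DMSO. The mitochondrial share was 7.2% and 8.43% with JQ1, against 10.7% and 11.2% with DMSO. The summed fibroblast markers were 2333 and 2064 CPM with JQ1 against 3309 and 3134 CPM with DMSO, with 8 of the 11 markers tested lower, and the primitive endoderm markers 304 and 249.9 CPM against 465 and 336 CPM, with none of 6 called. Lum was the only fibroblast marker at 0 in a knockout library, the second with JQ1. The part of these differences in the ribosomal protein result was not tested.

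**Figure D2:**
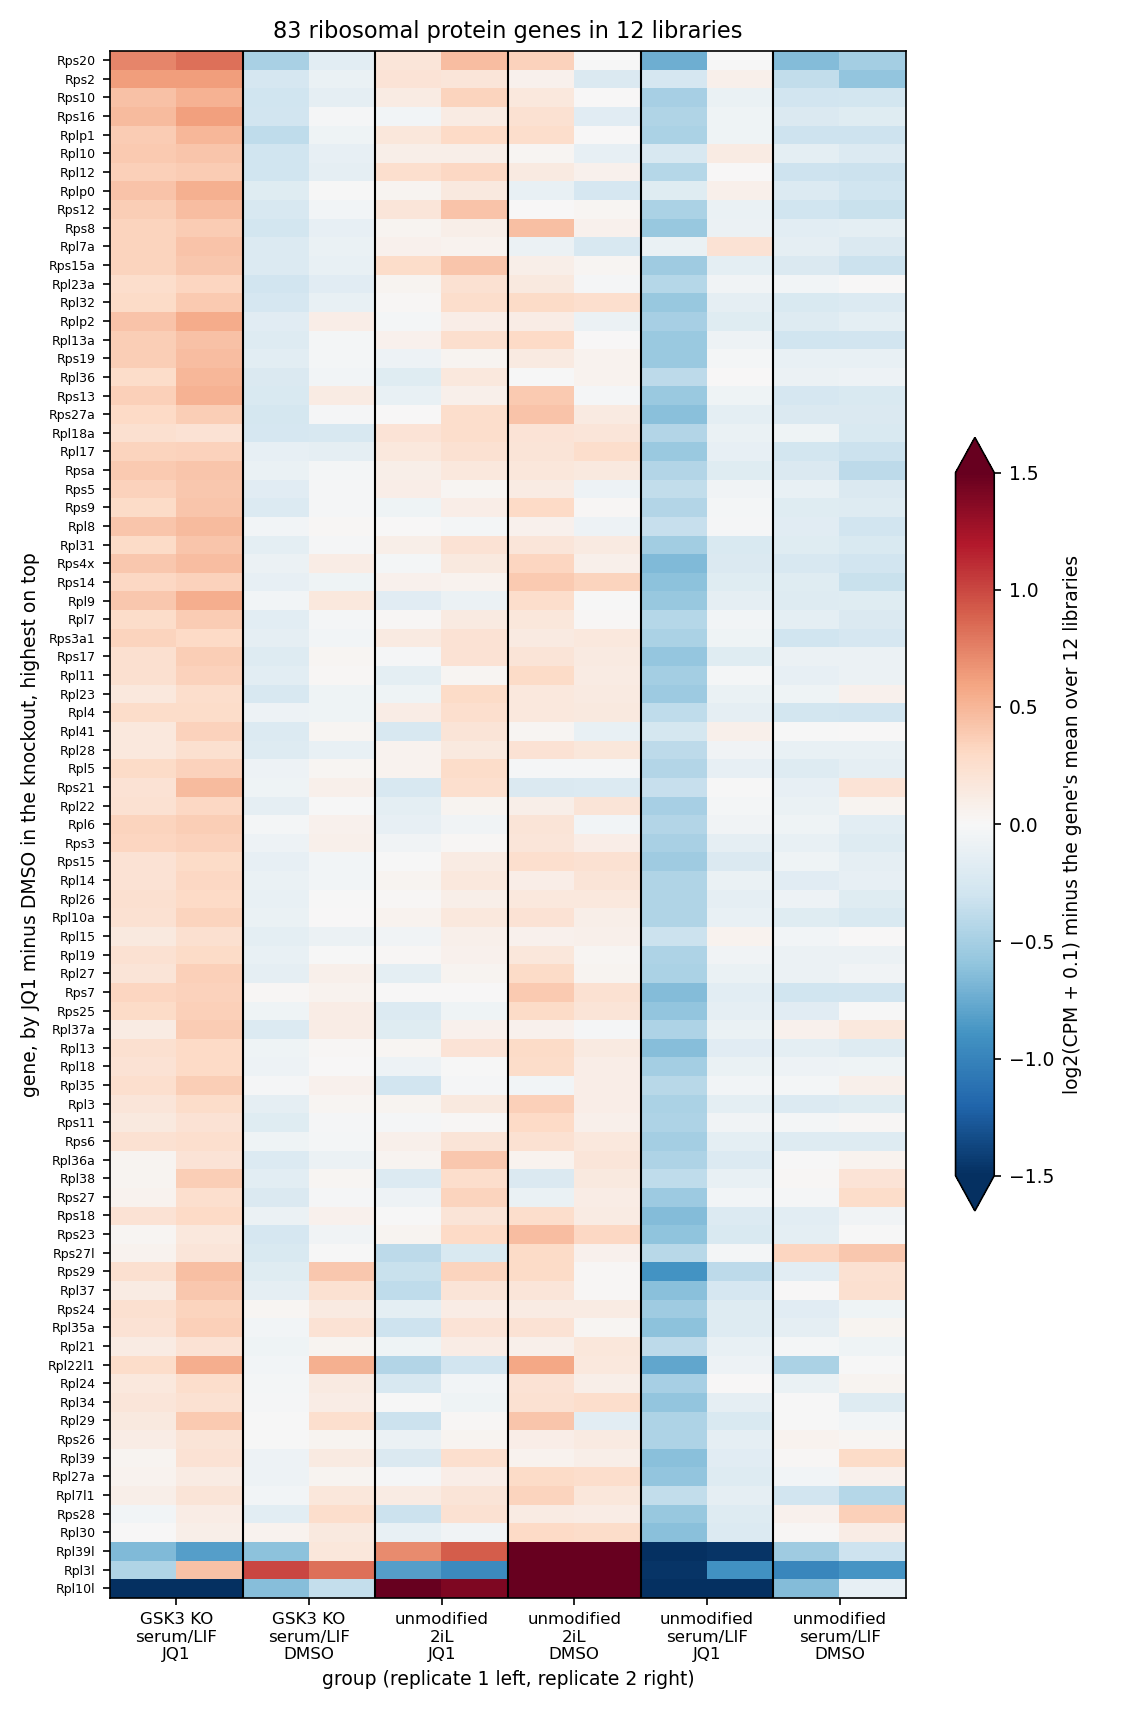
Heat map of log2(CPM + 0.1) minus each gene's mean over 12 libraries (colour) for the 83 ribosomal protein genes (rows, ordered by JQ1 minus DMSO in the knockout) in the 12 libraries (columns, 2 per group). The knockout JQ1 columns are above the mean for nearly all core members, the first unmodified serum/LIF JQ1 library is below it, and Rpl39l, Rpl3l and Rpl10l at the bottom are far above it in 2iL with DMSO.

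In 2iL, few ribosomal protein transcripts passed the test for JQ1. No member rose and 6 fell, where 11.2% of all genes tested rose and 17.3% fell, and the median over the members was -0.09, beside -0.06 over all genes. 5 of the 6 were paralogs, Rpl10l, Rpl39l, Rpl3l, Rpl22l1 and Rps27l. The only core member was Rpl30, a large subunit protein, with 211 and 220.3 CPM with JQ1 against 281 and 277 CPM with DMSO (-0.37 ± 0.12, edgeR adjusted p = 0.0384; up to 0.187 without 1 of the 2iL or knockout libraries). Rps20 had 588 and 717 CPM with JQ1 against 658 and 517 CPM with DMSO, so its groups overlapped (0.15 ± 0.20, edgeR adjusted p = 0.611), and Rplp0, at 1773 and 1904 against 1592 and 1445 CPM, did not pass (0.28 ± 0.11, edgeR adjusted p = 0.0896). Without the first 2iL DMSO library or either 2iL JQ1 library 3 members fell, and without either unmodified serum/LIF JQ1 library 3 rose and 10 fell. Under scaling to library totals instead of TMM, 10 members fell and none rose, with a median of -0.19 over the members and -0.16 over all genes, of which 1151 were higher and 3514 lower, in place of 1896 and 2938. The summed fibroblast markers were 4611 and 3907 CPM with JQ1 against 1933 and 2443 CPM with DMSO, of which Fn1 made up most in each library, and the mitochondrial share was 4.67% and 4.82% against 6.75% and 6.41%. Their part in these values was not tested.

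In unmodified serum/LIF cells, 1 member rose with JQ1 and 7 fell, where 8.54% of all genes tested rose and 12.8% fell. The median over the members was -0.16 and over all genes -0.02, and 71 of the 83 values were negative, although on the TPM scale 53 of the 83 had a higher mean with JQ1. DESeq2 called 13 members, the fit without the low-count filter 13, and that of the compared libraries alone 3. The member that rose was Rps2, with 1463 and 1833 CPM with JQ1 against 1345 and 1155 CPM with DMSO (0.40 ± 0.13, edgeR adjusted p = 0.047). Its call is lost without any one of 9 libraries. These are both DMSO libraries and the second JQ1 library of this setting, both 2iL JQ1 libraries and all knockout libraries. With DESeq2's size factors none rose and 9 fell. Those that fell were the paralogs Rpl10l, Rpl39l and Rps27l, and the core members Rps28, Rpl39, Rpl30 and Rpl27a. Rps28, a very short small subunit protein, had 148 and 192 CPM with JQ1 against 229 and 281 CPM with DMSO (-0.59 ± 0.19, edgeR adjusted p = 0.043). Rpl39, which lines the exit tunnel of the ribosome, had 106 and 145 against 166 and 199.6 CPM (-0.54 ± 0.17, edgeR adjusted p = 0.0417). In both genes the first JQ1 library was the lowest of the 4, and without it neither passed (adjusted p = 0.233 for Rps28 and 0.26 for Rpl39).

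These counts rest on single libraries. Without the first unmodified serum/LIF JQ1 library, 3 members rose and 1 fell, with a median of 0.05. Without the second, none rose and 32 fell, with a median of -0.35. Without the first or the second DMSO library, none rose and 3 or 1 fell. Without a knockout DMSO library none rose and 5 fell, and without a knockout JQ1 library none rose and 4 fell. Rpl10l alone kept its call without any single library. The fibroblast markers were lower with JQ1 here as well, at 2948 and 2002 CPM against 4510 and 3962 CPM with DMSO (9 of 11 tested called lower), 5 of 8 ES cell markers were called lower, and the mitochondrial share was 6.45% and 7.51% against 9.44% and 11.9%. Their part in the values of the members was not tested.

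**Figure D3:**
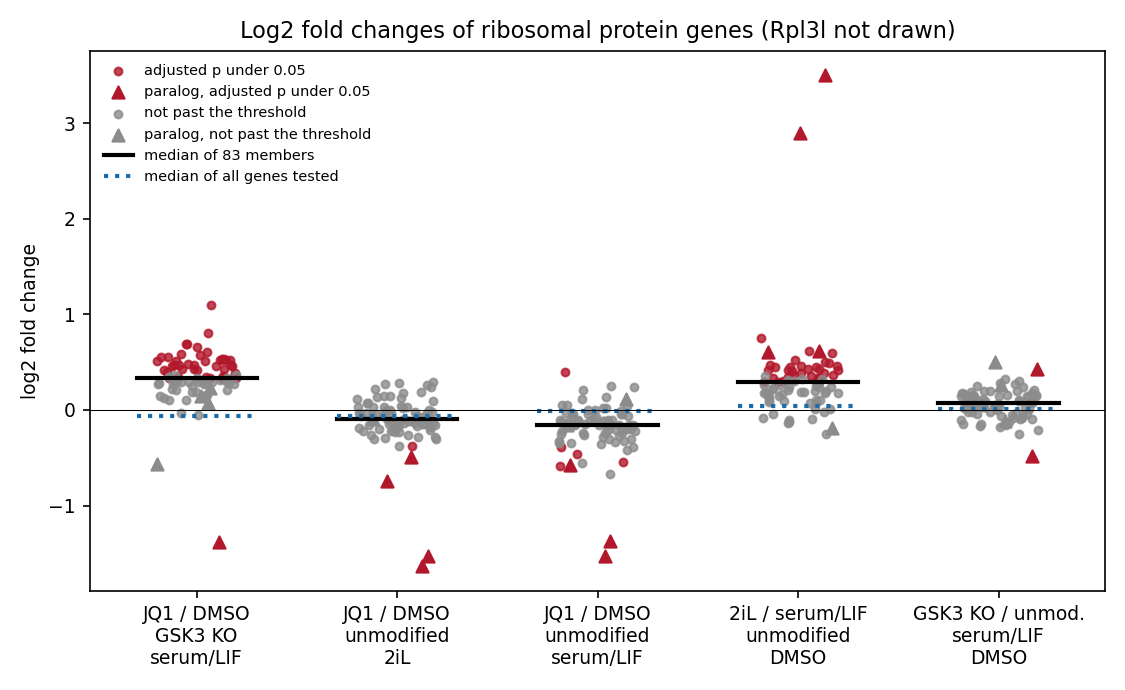
Log2 fold changes (y axis) of 82 ribosomal protein genes in 5 comparisons (x axis), with Rpl3l left out for its low counts. Red points passed the test, triangles are paralogs, black lines are medians of the 83 members and dotted lines medians of all genes tested; the member median is 0.34 for JQ1 in the knockout and -0.16 for JQ1 in unmodified serum/LIF cells.

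Whether the response to JQ1 differed between settings was tested directly as the difference of the log2 fold changes. Between the knockout and unmodified cells in serum/LIF, 3 members had a higher response in the knockout and none a lower one, where 1.25% of all genes tested were higher and 3.12% lower. The median difference was 0.51 over the members and -0.02 over all genes. DESeq2 called 37 members (median 0.54), the fit without the low-count filter 59 and that with DESeq2's size factors 7, all of them higher in the knockout. At an unadjusted p under 0.05, 72 members were past the threshold, all higher in the knockout, where 22.9% of all genes were past it in either direction. The 3 called members were Rps27l, Rpl23a and Rps15. Rpl23a, where the nascent chain leaves the ribosome, had 1052 and 1098 CPM with JQ1 against 716 and 781 CPM with DMSO in the knockout, and 651 and 847 CPM with JQ1 against 850.4 and 881 CPM with DMSO in unmodified cells (difference 0.73 ± 0.18, edgeR adjusted p = 0.0388). Rps15 had 648 and 677 against 512 and 539 CPM in the knockout, and 384 and 477 against 532 and 508 CPM in unmodified cells (0.60 ± 0.16, edgeR adjusted p = 0.0475). None of the 3 calls was kept in every fit without 1 library. The count was 68, with a median difference of 0.74, without the second unmodified serum/LIF JQ1 library, 0 with a median of 0.33 without the first, and 0 without any one of the 2 unmodified serum/LIF DMSO or the 4 knockout libraries. It was 9 without either 2iL DMSO library and 2 without either 2iL JQ1 library.

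Between 2iL and serum/LIF in unmodified cells, the response to JQ1 differed for none of the 83 members, where 1.35% of all genes had a higher response in 2iL and 2.8% a lower one. The median difference was 0.04 over the members by edgeR and -0.05 over all genes. The lowest adjusted p of any member was 0.209, 2 members were past an unadjusted p under 0.05, both higher in 2iL, and DESeq2 called 0 members. With scaling to library totals the median of the members became -0.06 and that of all genes -0.15. Without the first unmodified serum/LIF JQ1 library the member median was -0.13, and without the second it was 0.25. The sign of the member median is thus not settled.

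Averaged over the 3 settings, JQ1 raised 10 members and lowered 5, where 19.9% of all genes tested were higher and 25.6% lower. The member median was 0.02, or -0.02 with library totals. The 10 were Rps20 (0.50 ± 0.12, edgeR adjusted p = 0.00374), Rps2 (0.49 ± 0.08, edgeR adjusted p = 0.000219), Rplp0 (0.35 ± 0.07, edgeR adjusted p = 0.000859), Rpl7a, Rps12, Rpl12, Rpl10, Rps10, Rplp1 and Rps15a. Each of these 10 was called higher in the knockout, but none in 2iL and only Rps2 in unmodified serum/LIF cells. The 5 were Rpl10l, Rpl39l, Rpl3l, Rpl30 and Rps27l. 13 of the 15 calls were kept without any single library. Without the first unmodified serum/LIF JQ1 library 26 rose and 5 fell, and without the second 10 rose and 12 fell.

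The medium itself went with a broad difference in the members. With DMSO, 37 of the 83 were higher in 2iL than in serum/LIF and none lower, where 28.3% of all genes tested were higher and 26.5% lower. That is 44.6% of the members, 20 from the large and 17 from the small subunit, and the median was 0.29 over the members and 0.04 over all genes. With DESeq2's size factors in the edgeR fit, 22 were higher and none lower, and the medians were 0.22 over the members and -0.03 over all genes. Without the first 2iL DMSO library the count was 11, without the second serum/LIF DMSO library 16 and without the first 19. It was also 24 by DESeq2, 20 with the compared libraries alone and 24 without either 2iL JQ1 library, where the member median was 0.24. Calls of 10 members were kept without any single library, those of Rps14, Rps7, Rpl4, Rpsa, Rpl32, Rpl17, Rpl10l, Rpl39l, Rpl3l and Rpl7l1.

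Among small subunit genes, Rps14, in the platform of the subunit, had 872 and 833 CPM in 2iL with DMSO against 585 and 527 CPM in serum/LIF with DMSO (0.62 ± 0.13, edgeR adjusted p = 0.00107). Rps7, also in the small subunit, had 772 and 691 against 480 and 485 CPM (0.60 ± 0.13, edgeR adjusted p = 0.00193). Rps20, highest in the knockout with JQ1, had 658 and 517 against 332 and 365 CPM (0.76 ± 0.20, edgeR adjusted p = 0.00657; 0.0764 without the first 2iL library), and Rpsa had 2075 and 2038 against 1585 and 1404 CPM (0.46 ± 0.11, edgeR adjusted p = 0.00259). For each of these 4 genes both 2iL libraries exceeded both serum/LIF libraries, which adds no support to calls made on the same libraries. Rps6 was at 1383 and 1310 against 1028 and 1028 CPM (0.39 ± 0.11, edgeR adjusted p = 0.0111), a call lost without the first 2iL library (adjusted p = 0.0803). The smallest differences that passed were 0.29 for Rps3, Rpl14 and Rpl26 (edgeR adjusted p = 0.0485, 0.047 and 0.0403), and none of these 3 calls held by DESeq2 (adjusted p = 0.121, 0.122 and 0.108). In the large subunit Rpl32 (0.49), Rpl17 (0.52) and Rpl4 (0.43) were higher in 2iL. Rplp0 (0.07 ± 0.11, edgeR adjusted p = 0.617), Rpl7a (0.01 ± 0.11) and Rpl10 (0.14 ± 0.12) were not called. 26 members were higher both with JQ1 in the knockout and in 2iL over serum/LIF. That is 63.4% of the 41, beside the 44.6% of all members higher in 2iL. It is 70.3% of the 37, beside the 49.4% that rose with JQ1. The 2 comparisons share no library, but both come from 1 model with 1 estimate of the spread per gene and the same scaling. The overlap of their calls is therefore not independent support. The media also differed in ES cell markers, at 4631 and 4156 CPM in 2iL with DMSO against 1881 and 2435 CPM in serum/LIF with DMSO (6 of 8 called higher and 2 lower), in fibroblast markers, all 11 of those tested being lower in 2iL, and in the mitochondrial share, at 6.75% and 6.41% in 2iL with DMSO against 9.44% and 11.9% in serum/LIF with DMSO. Their part in the difference was not tested.

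Few members passed between genotypes. With DMSO, Rpl7l1 and Rpl3l were higher and Rps27l was lower in knockout than in unmodified serum/LIF cells, where 18.9% of all genes tested were higher and 21% lower. The call for Rpl3l rests on only 9 and 7 counts in the knockout against 2 and 1 in unmodified cells. The median was 0.08 over the members and 0.01 over all genes, or 0.02 with DESeq2's size factors, with -0.05 over all genes. Rps20 had 372 and 466 CPM in the knockout against 332 and 365 CPM in unmodified cells, which did not pass (0.27 ± 0.20, edgeR adjusted p = 0.319). None of the 3 calls was kept in every fit without 1 library, and the count was 1 without the second unmodified DMSO library or the first knockout DMSO library, 2 without the other DMSO library of either, and 6 without the first unmodified serum/LIF JQ1 library. The fibroblast markers stood at 3309 and 3134 CPM in the knockout with DMSO against 4510 and 3962 CPM in unmodified cells with DMSO. Of the 11 tested, 8 were lower and 1 higher. Fn1 made up most of each sum, at 2841 and 2480 against 2878 and 2665 CPM. The primitive endoderm markers stood at 465 and 336 against 79.5 and 72.9 CPM, with 5 of 6 higher and 1 lower. Lama1 made up most of their sum in the knockout, at 397.9 and 286.5 against 29.53 and 40.12 CPM. Their part in these values was not tested.

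Rpl3l aside, the largest fold changes among the members were those of the paralogs Rpl10l and Rpl39l. They are copies of X-linked genes on autosomes and are best known in the mouse from the testis. Rpl10l was highest in 2iL with DMSO, at 211 and 165 CPM, against 13.8 and 19.9 CPM in serum/LIF with DMSO (3.50 ± 0.24, edgeR adjusted p = 1.03e-07), while Rpl10 did not pass. JQ1 lowered Rpl10l in all 3 settings. It had 5.36 and 6.52 CPM with JQ1 against 13.8 and 16.8 CPM with DMSO in the knockout (-1.38 ± 0.26, edgeR adjusted p = 0.00173). In 2iL it had 73.7 and 57.3 CPM with JQ1 against 211 and 165 CPM with DMSO (-1.52 ± 0.22, edgeR adjusted p = 0.000395), and in unmodified serum/LIF cells 4.21 and 7.36 against 13.8 and 19.9 CPM (-1.53 ± 0.26, edgeR adjusted p = 0.00155). All 3 falls, and the difference between media, kept their calls without any single library, and JQ1 and DMSO libraries did not overlap in any setting. The lack of overlap adds no support to calls made on the same libraries. The response of Rpl10l did not pass as different between the knockout and unmodified cells (difference 0.15 ± 0.37, edgeR adjusted p = 0.85). Of the TPM of Rpl10l and Rpl10 together, Rpl10l made up 13% and 11.5% in 2iL with DMSO and 1.1% and 1.67% in serum/LIF with DMSO.

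Rpl39l stood at a lower level and was also highest in 2iL with DMSO. It had 42.1 and 21.9 CPM in 2iL with DMSO against 3.99 and 4.66 CPM in serum/LIF with DMSO (2.90 ± 0.32, edgeR adjusted p = 6.52e-06). With JQ1 it stood at 9.57 and 11.0 CPM in 2iL, a fall of 1.63 ± 0.30 (log2 fold change -1.63, edgeR adjusted p = 0.00178). In unmodified serum/LIF cells it had 1.3 and 2.03 CPM with JQ1 (-1.37 ± 0.37, edgeR adjusted p = 0.0195), a call lost without either DMSO library or without the first JQ1 library (adjusted p up to 0.135). In the knockout, 3.64 and 3.23 CPM with JQ1 against 3.76 and 6.54 CPM with DMSO did not pass (-0.57 ± 0.34, edgeR adjusted p = 0.215). Rpl39 itself stood at 106 to 199.6 CPM in all 12 libraries.

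Rps27l, a gene known to respond to p53, fell with JQ1 in unmodified cells in both media. It had 121 and 135 CPM with JQ1 against 194 and 165 CPM with DMSO in 2iL (-0.49, edgeR adjusted p = 0.0192), and 119 and 155 against 198 and 211 CPM in unmodified serum/LIF cells (-0.58, edgeR adjusted p = 0.011). In the knockout it had 164 and 179.9 CPM with JQ1 against 135 and 158 CPM with DMSO (0.23 ± 0.14, edgeR adjusted p = 0.207), and the difference between the knockout and unmodified responses passed (0.81 ± 0.19, edgeR adjusted p = 0.035). That call is lost without any one of 7 libraries, the 2 unmodified serum/LIF DMSO libraries, the first JQ1 library there and the 4 knockout libraries, with an adjusted p of up to 0.164. The fall in 2iL is lost without the first DMSO library (adjusted p = 0.138) or either JQ1 library (up to 0.149), and that in serum/LIF without the second DMSO library (0.0646) or the first JQ1 library (0.0843). With DMSO it was lower in knockout than in unmodified cells (-0.48, edgeR adjusted p = 0.0139), which is lost without the first knockout library (adjusted p = 0.138) or the second unmodified one (0.0682).

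Rpl22l1, a paralog that can act on RNA processing, fell with JQ1 in 2iL, with 26.4 and 29.2 CPM against 53.5 and 39.8 CPM with DMSO (-0.75 ± 0.25, edgeR adjusted p = 0.0395). The call is lost without the first 2iL DMSO library (adjusted p = 0.249), either JQ1 library there (0.185 and 0.116) or either knockout JQ1 library (0.0502). Rpl7l1 was higher in 2iL than in serum/LIF with DMSO, with 233 and 208 against 151 and 138 CPM (0.61 ± 0.12, edgeR adjusted p = 0.000619), and did not pass for JQ1 in any setting. Rpl3l, a gene of heart and skeletal muscle, had only 0 to 27 counts per library. There were 3 and 5 counts in the knockout with JQ1 against 9 and 7 with DMSO, 1 and 1 in 2iL with JQ1 against 27 and 21 with DMSO, and 0 and 1 in unmodified serum/LIF cells with JQ1 against 2 and 1 with DMSO. It passed in 2iL over serum/LIF (edgeR adjusted p = 0.000166) and for JQ1 in 2iL (edgeR adjusted p = 0.00149). It also passed in the knockout over unmodified cells with DMSO and for the mean JQ1 effect. No fold is given at such counts.

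**Figure D4:**
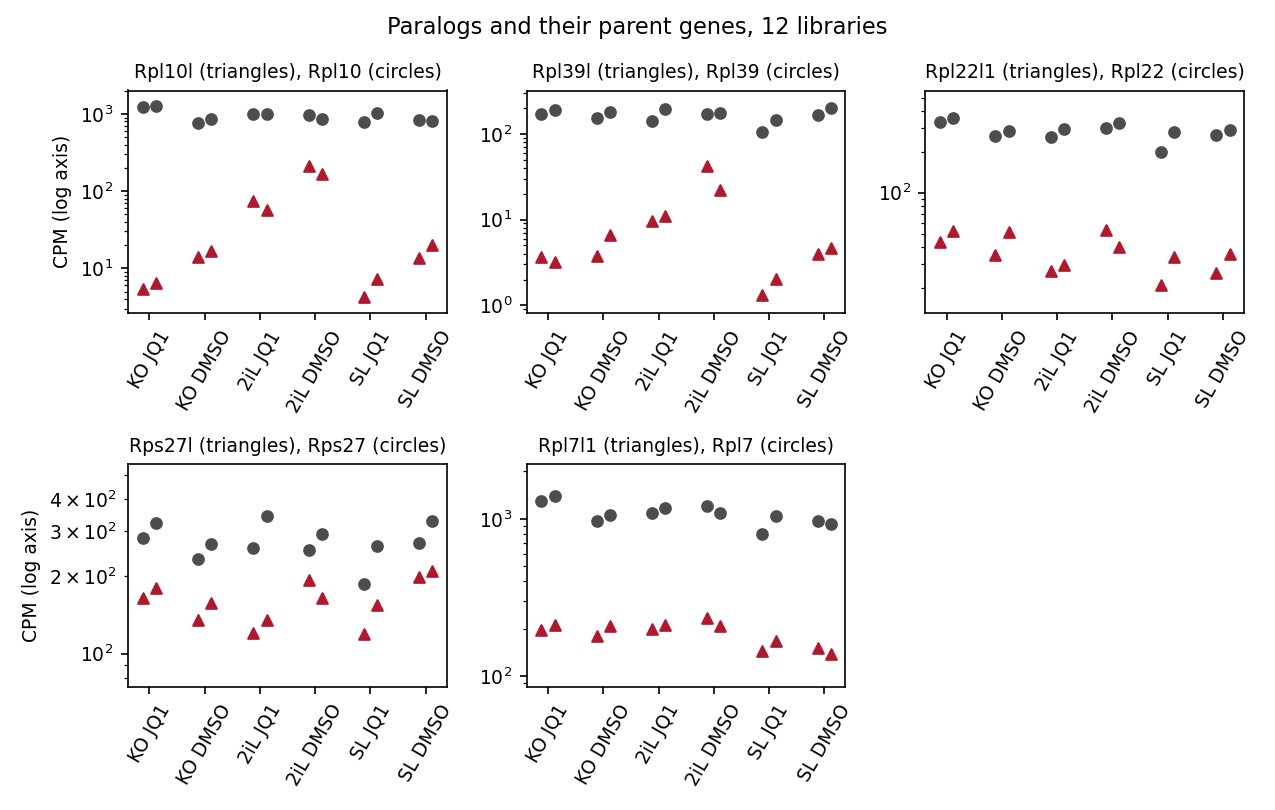
CPM on a log axis (y axis) of 5 paralogs (triangles) and their parent genes (circles) in each library, by group (x axis; KO is the knockout, SL serum/LIF without the knockout, 2iL unmodified cells in 2iL). Rpl10l spans 4.21 to 211 CPM and Rpl39l 1.3 to 42.1 CPM, while Rpl10 and Rpl39 stay within a narrow band.

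Over the 77 core members, Spearman's rho between effective length and the JQ1 log2 fold change was 0.194 in the knockout, 0.061 in 2iL and 0.451 in unmodified serum/LIF cells. For the difference between knockout and unmodified responses it was -0.466. These are descriptions across genes that share the same libraries. The 14 core members under 200 effective bases had a median of -0.28 in unmodified serum/LIF cells, beside -0.13 for the 63 longer ones. Without the first JQ1 library there, rho was 0.402 and these medians were -0.10 and 0.06, and rho of the difference was -0.434. In the knockout, 4 of the 14 and 37 of the 63 rose. Comparisons without JQ1 gave rho of 0.31 for 2iL over serum/LIF and 0.392 for the knockout over unmodified cells, and both use the same unmodified serum/LIF DMSO libraries. Mean fragment length ran from 287.5 to 321 bases over the libraries, and its part in these values was not tested.

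**Figure D5:**
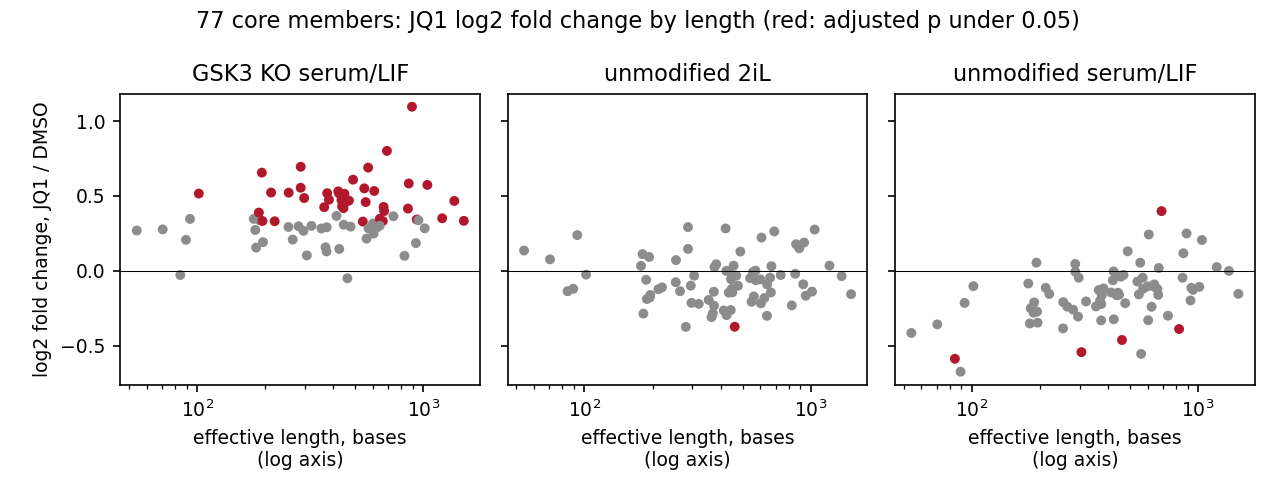
JQ1 log2 fold change (y axis) of the 77 core members by effective length in bases (x axis, log scale) in the 3 settings; red points passed the test. Spearman's rho is 0.451 in unmodified serum/LIF cells, where genes of middle length also reach low values, and in the knockout most points lie above 0 at all lengths.

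Other genes of the translation machinery were read beside the members. Of 14 translation factor and related genes whose messenger RNAs also carry a TOP tract, 10 rose and none fell with JQ1 in the knockout, with a median of 0.43, and 3 rose in 2iL (median 0.10) and none passed in unmodified serum/LIF cells (median 0.10). Of all genes tested, 14.6%, 11.2% and 8.54% rose in these 3 comparisons. Tpt1 (0.77, edgeR adjusted p = 0.000798) and the elongation factor subunit Eef1b2 (0.55) were the highest in the knockout. Among the ribosomal genes outside the naming rule, Rack1 had 1789 and 1844 CPM with JQ1 against 1203 and 1348 CPM with DMSO in the knockout (0.51, edgeR adjusted p = 0.00663) and Fau rose by 0.34 (edgeR adjusted p = 0.0401), while Rpl36al (0.12) did not pass. In that comparison 14.6% of all genes tested rose and 19.5% fell. Of 20 genes for ribosome assembly and RNA polymerase I, 1 rose and 1 fell there, with a median of 0.01. These were Fbl, the methyltransferase of small nucleolar ribonucleoproteins, at 0.71 (edgeR adjusted p = 0.00125) and Polr1b, a subunit of the polymerase, at -0.41 (edgeR adjusted p = 0.0055).

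In 2iL over serum/LIF, 3 of the 20 assembly genes were higher and 5 lower, with a median of 0.04 (0.04 over all genes, of which 28.3% were higher and 26.5% lower), among them the ribosomal DNA factor Ubtf at 1.00 and Bop1 at -0.48. In the knockout over unmodified cells, where 18.9% of all genes were higher and 21% lower, 6 were higher, Rrn3 (0.75) and Ubtf (0.73) the most, and none lower. Of 16 regulators of ribosomal protein messenger RNA and S6 kinase genes, 3 rose and 3 fell with JQ1 in the knockout. Of all genes tested, 14.6% rose and 19.5% fell there, so these counts are near the general share. Myc had 55.5 and 71.1 CPM with JQ1 against 79.4 and 88.0 CPM with DMSO there (-0.41, edgeR adjusted p = 0.0378). In 2iL it had 4.95 and 4.57 CPM with JQ1 against 6.33 and 6.82 CPM with DMSO, and in unmodified serum/LIF cells 95.0 and 96.6 against 84.2 and 67.5 CPM, neither of which passed. With DMSO, Myc was lower in 2iL than in serum/LIF (-3.53). Larp1 was lower in 2iL than in serum/LIF with DMSO (-0.37, edgeR adjusted p = 0.00357) and stood at 0.01 for JQ1 in the knockout.

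Promoter windows from RefSeq, on GRCm38.p6, could be matched to 63 of the 83 members. Those of Rps27 and Rpl12 show a TOP-like start, and those of the 2 paralog pairs are set beside each other. Each is given from 100 bases before to 20 bases after the annotated start, on the strand of the gene, with matches to the motifs below in capitals. The windows are Rps27 at chr3:90213629-90213748 (minus), Rpl12 at chr2:32961612-32961731 (plus), Rpl10 at chrX:74270716-74270835 (plus), Rpl10l at chr12:66284382-66284501 (minus), Rpl39 at chrX:37085203-37085322 (minus) and Rpl39l at chr16:10170128-10170247 (plus).
Rps27: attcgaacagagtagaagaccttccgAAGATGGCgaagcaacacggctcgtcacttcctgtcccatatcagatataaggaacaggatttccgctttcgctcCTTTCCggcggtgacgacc
Rpl12: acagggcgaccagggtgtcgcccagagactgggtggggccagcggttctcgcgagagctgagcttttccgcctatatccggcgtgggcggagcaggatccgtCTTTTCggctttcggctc
Rpl10: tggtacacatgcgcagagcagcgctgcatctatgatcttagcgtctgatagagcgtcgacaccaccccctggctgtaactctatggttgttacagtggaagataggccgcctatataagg
Rpl10l: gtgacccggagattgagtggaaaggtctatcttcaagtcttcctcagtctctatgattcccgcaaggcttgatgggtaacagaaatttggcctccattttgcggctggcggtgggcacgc
Rpl39: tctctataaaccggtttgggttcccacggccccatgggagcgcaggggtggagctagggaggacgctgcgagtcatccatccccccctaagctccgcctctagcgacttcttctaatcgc
Rpl39l: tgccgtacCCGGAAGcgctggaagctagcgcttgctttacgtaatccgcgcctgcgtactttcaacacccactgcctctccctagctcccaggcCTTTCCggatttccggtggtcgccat

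CTTTTC or CTTTCC, a TOP-like string on the coding strand, lay within 25 bases of the start in 23.8% of the 63 members and 4.84% of all 27018 genes with a window. CCGGAAG, the core bound by ETS factors such as Gabpa, searched on both strands of the 300-base window, was in 41.3% of members and 9.93% of all genes. AAGATGGC, the core of the Yy1 motif, on both strands, was in 9.52% against 3.19%, and CACGTG, the E-box bound by Myc and its relatives, which reads the same on both strands, in 9.52% against 8.09%. CCGGAAG and AAGATGGC can overlap by the letters AAG. Of the 27 members with a window that rose with JQ1 in the knockout, 22.2% held the TOP-like string, beside 25% of the other 36. CCGGAAG was in 25.9% of the 27 and 52.8% of the 36, and CACGTG in 11.1% and 8.33%. Rps27 and Rpl12 both hold a TOP-like string; Rpl12 rose with JQ1 in the knockout, and Rps27 stood at 0.27 ± 0.18 there (edgeR adjusted p = 0.26). These shares describe letters in a window and were not tested.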

How the data were processed

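Polyadenylated RNA of 12 ES cell libraries was sequenced as read pairs, per the labels' protocols. bcl2fastq, the aligner STAR (2.5.2), the quantifier RSEM, DESeq2 (1.18.1) and the build mm10 appear in the submitters' processing notes; the use of strand in counting and the gene annotation are not given in the sources used here. The deposited files hold 1 table per library with RSEM expected counts, TPM and FPKM per gene made by the authors (the FPKM were not used), and effective lengths in bases, another deposited column. Of the 52550 rows, 52403 (99.72%) matched GENCODE M21 by gene ID without its version, and 70 of the 83 members had the same version.

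Expected counts were rounded to whole numbers. edgeR's low-count filter (10 counts, 15 in total) kept 16987 genes, all 83 members among them. Libraries were scaled by TMM, and CPM are on that scale. One model of the 6 groups (edgeR 4.0.16 quasi-likelihood test, R 4.3.3, 6 residual degrees of freedom, common biological coefficient of variation 0.129) gave 8 comparisons, with p-values adjusted over all genes tested by Benjamini-Hochberg and a threshold of 0.05. Values after ± are standard errors of the log2 fold change. The fit was tested on simulated data for JQ1 in the knockout only, with genes drawn independently at a constant coefficient of variation of 0.129. Shifts of a whole library common to the members were not simulated. That test therefore cannot show how such shifts act on the counts of called members. The members and gene lists were chosen with earlier results of these data known. The naming rule took, per comparison, the 3 highest and 3 lowest called members, the paralog pairs, Rpl5, Rpl11, Rps6, Rplp0, Rplp1, Rplp2, Rpsa, Rps27a and Rpl38, and the extremes in TPM; other members singled out above were chosen after their values were seen. Figures used matplotlib 3.10.9, and tables pandas 2.3.3. Alternatives were DESeq2 1.42.0, DESeq2's size factors, library totals, no filter, 1 CPM in 4 libraries, the compared libraries alone, a replicate block, and leaving out each library. One gene of the context lists is not reported here.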

Additional observations from a re-analysis of the deposited data

Results flagged for a closer look

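The response to JQ1 differed between GSK3 knockout and unmodified serum/LIF cells for 3 members by the test of the difference itself (edgeR quasi-likelihood test, Benjamini-Hochberg adjustment over all genes). The difference of the log2 fold changes, knockout minus unmodified, was 0.811 for Rps27l, 0.73 for Rpl23a and 0.604 for Rps15. In each gene the fold change was positive in the knockout and negative in unmodified cells, at 0.23 and -0.58 for Rps27l, 0.52 and -0.21 for Rpl23a, and 0.33 and -0.27 for Rps15. None of the 3 kept its call in every fit without 1 library, where the adjusted p reached 0.164 for Rps27l, 0.165 for Rpl23a and 0.187 for Rps15.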

How the results depend on the processing

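No named value changed sign past the threshold on both sides: of 3628 recomputed values of named members, 3401 stayed on the same side of it, 128 lost a call, 99 gained one and 0 reversed. Of the 3401, 172 changed sign with neither value past the threshold. The 3628 include values of members never called and fits that leave out a library outside the comparison, so they do not measure how stable the calls were. Counts of called members moved as follows. For JQ1 in the knockout (42), there were 65 without the low-count filter and 65 with the compared libraries alone. There were 32 with library totals, 35 with 1 CPM in 4 libraries, and 8 to 58 without 1 library. For JQ1 in 2iL (6), there were 10 with library totals and 3 to 13 without 1 library. For JQ1 in unmodified serum/LIF cells (8), there were 13 by DESeq2, 13 without the filter, 3 with the compared libraries alone, 15 with the replicate block and 1 to 32 without 1 library. For the mean JQ1 effect (15), there were 23 without the filter and 14 to 31 without 1 library; the compared libraries alone are all 12 there, so that fit was not run. For 2iL over serum/LIF (37), there were 24 by DESeq2, 22 with DESeq2's size factors, 20 with the compared libraries alone and 11 to 47 without 1 library. For the knockout over unmodified cells (3), there were 6 without the filter and 1 to 6 without 1 library. The knockout minus unmodified response (3) gave 37 by DESeq2, 7 with its size factors, 59 without the filter, 21 with the replicate block and 0 to 68 without 1 library, and the 2iL minus serum/LIF response (0) gave 1 without the filter, 1 with the block and 0 without any 1 library. The cause was not tested. Replicate numbers were not taken as pairs: the 15 correlations between same-numbered deviations of groups ran from -0.186 to 0.185, with 6 above 0.1, among them JQ1 and DMSO within the knockout (0.117), 2iL (0.118) and unmodified serum/LIF (0.185). With 2 libraries per group, depth did not limit core members, but Rpl3l, with 0 to 27 counts, is barely measurable.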
